A study of Mus musculus with 10 samples.

Results

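The genes described here are the p53 pathway and the Bcl2 family in the adult mouse cortex: p53 itself, the proteins that control it, its transcriptional targets, and the pro- and anti-apoptotic Bcl2 proteins with the apoptosome. They were chosen by gene symbol, from a list of 49 symbols, and 42 of them are among the 13661 genes of the authors' deposited table. The other 7 (Chek1, Chek2, Gtse1, Eda2r, Fas, Tnfrsf10b and Bik) have no fold change here. Of these, Chek1, Chek2, Gtse1, Eda2r and Fas enter only the description of promoter windows. The study compared the cortex of 5 Chd8 knock-in (KI) and 5 wild-type (WT) male mice, all at 8 weeks of age, by RNA-seq of poly(A) RNA, 1 library per animal. The knock-in models duplication of Chd8, an autism-related gene for a chromatin remodeller. How the allele drives Chd8, the strain, and whether animals shared a litter are not given in the labels. The data are the authors' own table of that comparison, with no values per library, so neither the level in each animal nor the spread within a genotype could be shown.

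p53 (Trp53 in the mouse) is a transcription factor that is kept low by the ubiquitin ligase Mdm2 and its partner Mdm4, and is released when kinases such as Atm and Atr report DNA damage. It then switches on genes that arrest the cell cycle (Cdkn1a), feed back on p53 (Mdm2, Ccng1, Ppm1d), repair DNA or adjust metabolism, and it can trigger death by raising pro-apoptotic Bcl2 proteins such as Bbc3 (Puma), Pmaip1 (Noxa) and Bax. In the Bcl2 family, Bax and Bak1 form pores in the mitochondrial outer membrane, BH3-only proteins activate or free them, and Bcl2, Bcl2l1 (Bcl-xL), Bcl2l2 (Bcl-w) and Mcl1 hold them back. Mature neurons lean on Bcl2l1 and related guards for survival. CHD8 is reported to bind p53 and to restrain its activity through linker histone H1, which makes these genes a readout of interest when Chd8 is raised.

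Several of these genes carry the p53 half-site consensus, a motif of 10 bases that reads alike on both strands, close to their transcription start. RefSeq promoter windows of 300 bases (250 before to 50 after a start, GRCm38.p6) were found for 39 of the 49 genes, 50 windows in all. No mismatch was allowed, and 11 of the 50 windows (22.0%), from 10 genes, held it, against 8.36% of all 32851 windows. The 2 windows of Aen overlap and share a single match. A pair of such exact half-sites no more than 13 bases apart was in 24 windows of the genome (0.0731%). Of these, 1 belongs to Cdkn1a, with a spacer of 12 bases. In that window the second half-site is followed directly by TGACATGTTC. This stretch differs from the consensus at its first base only and so was neither counted nor set in capitals. A match describes letters in this window only, and many known p53 sites lie outside such windows. The stretches printed here are those of p53 itself and of 5 of its textbook targets with a match, with the half-site in capitals and up to 40 bases on either side, 5′ to 3′ along the gene.
Cdkn1a: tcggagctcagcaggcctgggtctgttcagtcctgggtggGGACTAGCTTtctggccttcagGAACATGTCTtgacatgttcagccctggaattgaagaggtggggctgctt
Mdm2: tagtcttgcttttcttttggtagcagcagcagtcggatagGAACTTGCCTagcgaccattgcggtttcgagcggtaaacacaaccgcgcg
Ccng1: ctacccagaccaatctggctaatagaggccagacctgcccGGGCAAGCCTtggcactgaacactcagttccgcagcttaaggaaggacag
Bax: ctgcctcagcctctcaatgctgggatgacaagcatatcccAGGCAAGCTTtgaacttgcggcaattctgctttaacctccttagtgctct
Sesn1: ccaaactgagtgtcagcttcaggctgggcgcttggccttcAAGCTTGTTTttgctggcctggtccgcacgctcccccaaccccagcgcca
Trp53: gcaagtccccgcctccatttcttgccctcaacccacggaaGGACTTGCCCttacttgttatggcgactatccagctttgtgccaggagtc
They lie at chr17:29090866-29090977 (plus strand), chr10:117710895-117710984 (minus strand), chr11:40755422-40755511 (minus strand), chr7:45467050-45467139 (minus strand), chr10:41887226-41887315 (plus strand) and chr11:69580244-69580333 (plus strand). Counted to the transcript start on which the window is built, the first half-site begins 73 bases upstream in Cdkn1a, 186 in Mdm2, 185 in Ccng1, 201 in Bax, 173 in Sesn1 and 75 in Trp53. For Cdkn1a and Mdm2 that start is the 5′ end of the RefSeq gene, and for Trp53, Bax and Ccng1 it lies 11, 5 and 23 bases inside it. The Sesn1 window belongs to an internal start, 76865 bases inside the gene. Matches in Aen (GGGCTTGTCC), Ei24 (GGGCATGCCC), Ppm1d (GAGCTTGCTC) and Gtse1 (GGGCTTGCCT) completed the set.

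The direction of the table is not named in its header and was taken as KI relative to WT, since Chd8 is then the higher one, at 1.40-fold (95% interval 1.22 to 1.61) in the authors' deposited table. On this reading none of the 42 genes passed an adjusted p of 0.05 by the authors' DESeq2 Wald test, where 0.0732% of the 13660 genes tested passed (10 genes, 0.00732% on the higher side and 0.0659% on the lower). The smallest adjusted p among the 42 was 0.9999 in the authors' deposited table. Before adjustment 3 of the 42 (7.14%) had a p under 0.05, against 3.22% of all genes. These were Apaf1 on the higher side, where 1.34% of all genes had such a p, and Perp and Bid on the lower, where 1.88% did. The median log2 fold change of the 42 was -0.0047, beside 0.0025 over all genes, with 20 positive and 22 negative (47.6% positive, against 51.6% of all genes). Single values ran from -0.30 (Perp) to 0.19 (Apaf1), and 31 of the 42 lay within 0.1 of zero on the log2 scale (73.8%, against 76.0% of all genes).

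The intervals show which differences the data leave room for. The 95% interval of the log2 fold change, taken from the deposited standard error, lay inside ±0.5 for 41 of the 42 genes (97.6%, against 88.5% of all genes). It lay inside ±0.25 for 22, a bound for which no share over all genes is given. The median standard error of the 42 was smaller than that of all genes (0.080 against 0.089). Their median mean normalised count was higher (615.8 against 548.6). The exception at ±0.5 was Perp, whose interval reached -0.57, and the highest upper bound was 0.41, for Ddb2. The 10 called genes of the authors' deposited table had Wald statistics of at least 4.15 in size. At its own deposited standard error, a gene of this set would have needed a log2 change of 0.17 (Bcl2l2) to 0.90 (Pmaip1), with a median of 0.33, to reach that score, and 8 of the 42 would have needed more than 0.5.

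**Figure D1:**
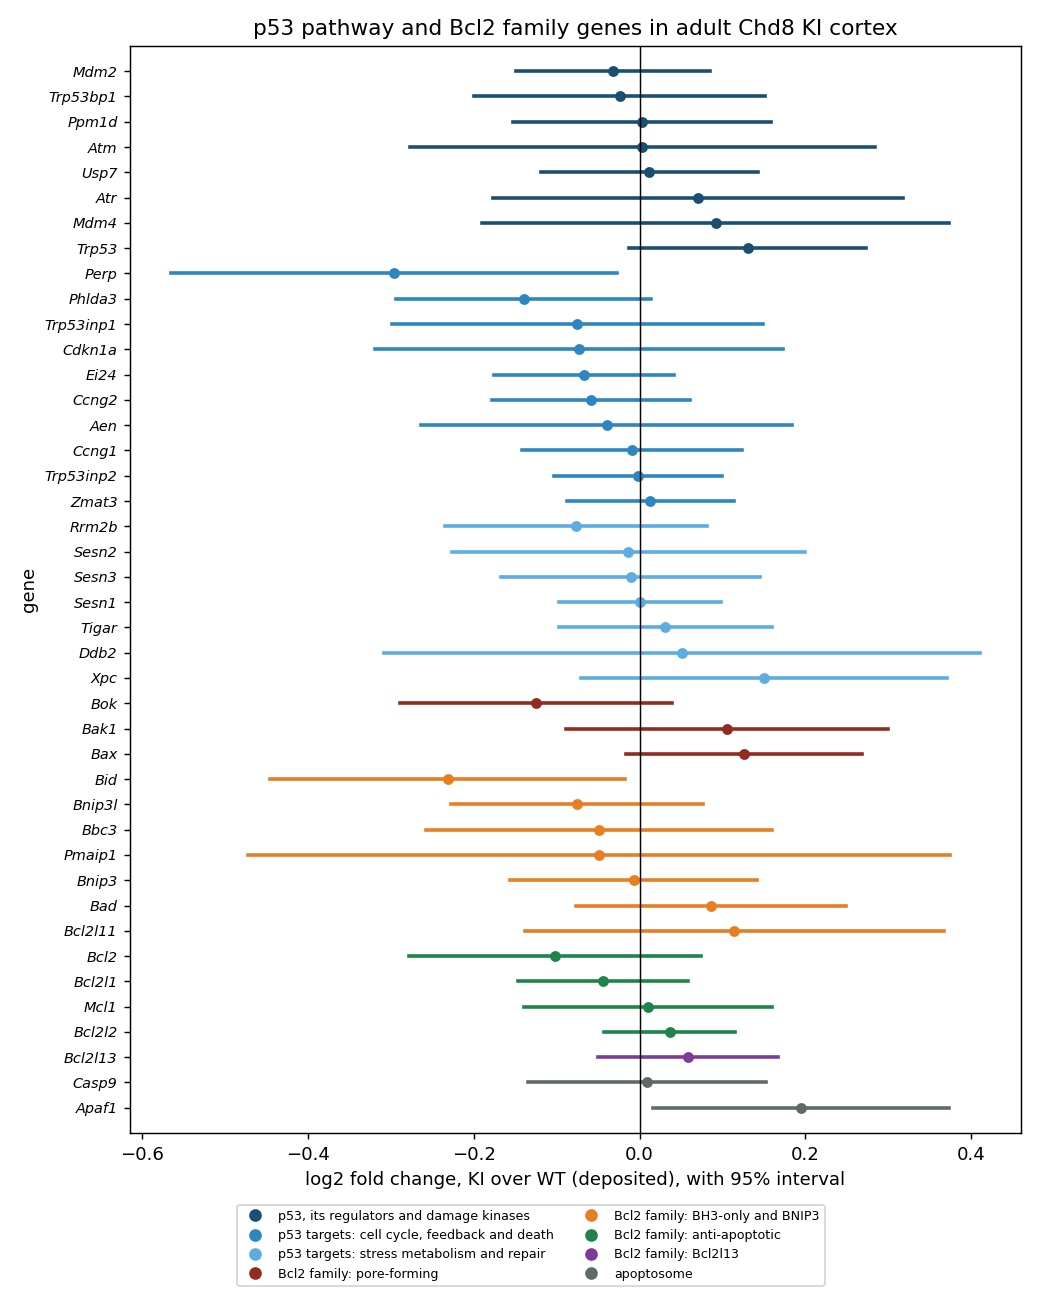
Log2 fold change of each of the 42 genes, KI over WT, with its 95% interval (horizontal axis, log2 units), grouped and coloured by role. The intervals of Perp and Bid lie below zero and that of Apaf1 above it, the other 39 cross zero, and Perp alone reaches past -0.5.

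p53 mRNA itself stood slightly higher in KI without passing the test. Trp53 (gene 22059, chromosome 11 from 69580348 to 69591873 in the RefSeq annotation of GRCm38.p6) was measured at 416.3 mean normalised counts over the libraries, with a fold change of 1.09 (95% interval 0.991 to 1.21, log2 0.13, standard error [SE] 0.073, unadjusted p = 0.0733) in the authors' deposited table. The lower bound of that interval is just under no change, and its upper bound is 1.21 times the WT level.
Its main antagonist Mdm2 (gene 17246, chromosome 10 from 117688875 to 117710758) stood at 0.978 of WT (0.902 to 1.06, log2 -0.032, unadjusted p = 0.592) in the authors' deposited table. Mdm4, the partner that masks the p53 activation domain, was the least precise of these regulators, at a log2 fold change of 0.092 with an interval from -0.19 to 0.37 (unadjusted p = 0.523) in the authors' deposited table. Usp7, the deubiquitinase that stabilises Mdm2 and p53, stood at 0.012 and Ppm1d (Wip1), a phosphatase that p53 induces and that shuts the damage response off, at 0.0032 in the authors' deposited table. Of the damage sensors, Atm stood at 0.0034, Atr at 0.071 and Trp53bp1, a reader of chromatin at double-strand breaks, at -0.024 in the authors' deposited table. In all, 6 of the 8 regulators tested were positive, with a median of 0.0077, and none had an unadjusted p under 0.05.

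The genes listed here as p53 targets of cell cycle, feedback and death were nearly all a little below zero. That p53 drives each of them in cortex is not shown by these data. Of the 10 tested, 9 were negative and only Zmat3, an RNA-binding zinc finger protein, was positive (0.013). That is 10% positive, against 51.6% of all genes. The median log2 fold change was -0.063 against 0.0025 over all genes. Of the 10, only Perp had an interval that excludes zero. With the 7 listed targets of metabolism and repair added, 5 of 17 were positive, with a median of -0.014. Of 30 other p53 targets, described below, 16 were positive. The groups were drawn with earlier results of these data known, and no shift of p53 targets is read from these signs. Mdm2, Ppm1d, Bax, Bbc3 and Pmaip1, which p53 induces, were placed in other role groups. Of these, Ppm1d and Bax were positive and Mdm2, Bbc3 and Pmaip1 negative. Cdkn1a (gene 12575, chromosome 17 from 29090979 to 29100722) encodes p21, the inhibitor of cyclin-dependent kinases that is the best known p53 target. It had a mean normalised count of 376.4 and stood at 0.951 of WT (95% interval 0.801 to 1.13, log2 -0.073, SE 0.13, unadjusted p = 0.562) in the authors' deposited table. This interval spans a modest loss and a small gain alike.
Perp (gene 64058, chromosome 10 from 18845071 to 18857073), a membrane protein of desmosomes and a p53 death effector, stood lowest of all 42 genes at 0.814 of WT (0.676 to 0.981, log2 -0.30, SE 0.14, unadjusted p = 0.0311) in the authors' deposited table, from a mean normalised count of 121.2. Phlda3, which competes with Akt for membrane lipids, stood at 0.908 (0.816 to 1.01, unadjusted p = 0.0741) in the authors' deposited table. Ccng1, encoding cyclin G1, which is among the most p53-responsive genes in the mouse, stood at a log2 fold change of -0.0091 (interval -0.14 to 0.12) in the authors' deposited table. The other members in this table of the authors' deposited values were Trp53inp1 at -0.075, Trp53inp2 at -0.0022, Aen, a nuclease, at -0.040, Ei24, a protein of the endoplasmic reticulum, at -0.067 and Ccng2, encoding cyclin G2, at -0.059.

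Targets that act in metabolism and DNA repair were centred on zero, with 4 of 7 positive and a median log2 fold change of 0.00038. The sestrins, which restrain mTORC1 when nutrients or redox state are disturbed, stood at 0.00038 (Sesn1), -0.014 (Sesn2) and -0.011 (Sesn3) in the authors' deposited table. Sesn1 was measured tightly, with an interval from -0.097 to 0.098, which is 0.935 to 1.07 times the WT level. Tigar, which lowers glycolytic flux, stood at 0.031, and Rrm2b, the p53-inducible subunit of ribonucleotide reductase, at -0.076 in the authors' deposited table. Of the nucleotide excision repair genes, Xpc stood at 0.15 (interval -0.071 to 0.37) and Ddb2 at 0.051 (-0.31 to 0.41, unadjusted p = 0.780) in the authors' deposited table, and both intervals cross zero.

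The 9 genes tested that carry a half-site in a promoter window had a median log2 fold change of -0.0091, with a range from -0.073 (Cdkn1a) to 0.13 (Trp53), and none had an unadjusted p under 0.05. The 25 tested genes whose windows lack it had a median of 0.0034, and 2 of them had such a p. No window was found for Perp, Pmaip1, Zmat3, Xpc, Ddb2, Rrm2b, Trp53inp1 and Bnip3l, which are in neither group. Over the whole table the same medians were 0.00044 for 895 genes with a half-site and 0.0015 for 9807 genes without. An unadjusted p under 0.05 was found for 35 of those 895 genes and for 314 of those 9807. These are descriptions of a gene set chosen for its function, and no test was made on them.

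In the Bcl2 family the pore-forming proteins differed in sign. Bax was at 1.09-fold (95% interval 0.989 to 1.20, log2 0.13, unadjusted p = 0.0823) and Bak1 at 1.08-fold (0.941 to 1.23, log2 0.11, unadjusted p = 0.285) in the authors' deposited table. Bok, the third of these genes and the one whose activity depends least on Bcl2 relatives, was at 0.917 (0.818 to 1.03, log2 -0.12, unadjusted p = 0.136) in the authors' deposited table. The difference between Bok and the others was not tested, since values per library are needed for it.
Among BH3-only genes and the mitophagy receptors Bnip3 and Bnip3l, 5 of 7 were negative, with a median log2 fold change of -0.049. Bid (gene 12122, chromosome 6 from 120893119 to 120917062), which links death receptors to mitochondria after caspase cleavage, stood at 0.852 of WT (0.734 to 0.988, log2 -0.23, SE 0.11, unadjusted p = 0.0340) in the authors' deposited table. The classical p53-induced killers Bbc3 and Pmaip1 each stood at -0.049 in the authors' deposited table, but with different precision. The interval ran from -0.26 to 0.16 for Bbc3 and from -0.47 to 0.37 (unadjusted p = 0.820) for Pmaip1, the least abundant of the 42 genes, with a mean normalised count of 49.4 in the authors' deposited table. Bad stood at 0.087, Bcl2l11 (Bim) at 0.11, Bnip3 at -0.0072 and Bnip3l at -0.076 in the authors' deposited table.

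The anti-apoptotic members lay on both sides of zero, and Bcl2l2 had the smallest deposited SE of the 42 genes, 0.041. It stood at a log2 fold change of 0.036 (interval -0.043 to 0.12) and Bcl2l1 at -0.044 (-0.15 to 0.058) in the authors' deposited table. Mcl1 was at 0.010 (-0.14 to 0.16) and Bcl2, the founding member, at -0.10 (-0.28 to 0.074, unadjusted p = 0.258) in the authors' deposited table. Their median was -0.017, with 2 positive and 2 negative. Bcl2l13, a mitochondrial relative that also serves as a mitophagy receptor, stood at 0.058 (-0.050 to 0.17, unadjusted p = 0.291) in the authors' deposited table. Downstream of the pore, Apaf1 (gene 11783, chromosome 10 from 90989311 to 91082743), the scaffold of the apoptosome, stood highest of the 42 genes at 1.14-fold (1.01 to 1.30, log2 0.19, SE 0.091, unadjusted p = 0.0328), while the caspase it activates, Casp9, was at 0.0087 (-0.13 to 0.15), both in the authors' deposited table.

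Each gene was also set against genes of like abundance. With all genes split into 10 equal classes by mean normalised count, 2 of the 42 genes lay outside the central 95% of their class, a band that leaves out 5% of all genes by construction. These were Apaf1, at 0.19 against an upper edge of 0.18, and Bok, at -0.125 against a lower edge of -0.122. Perp and Bid lay inside their bands, whose lower edges were -0.31 and -0.24.

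**Figure D2:**
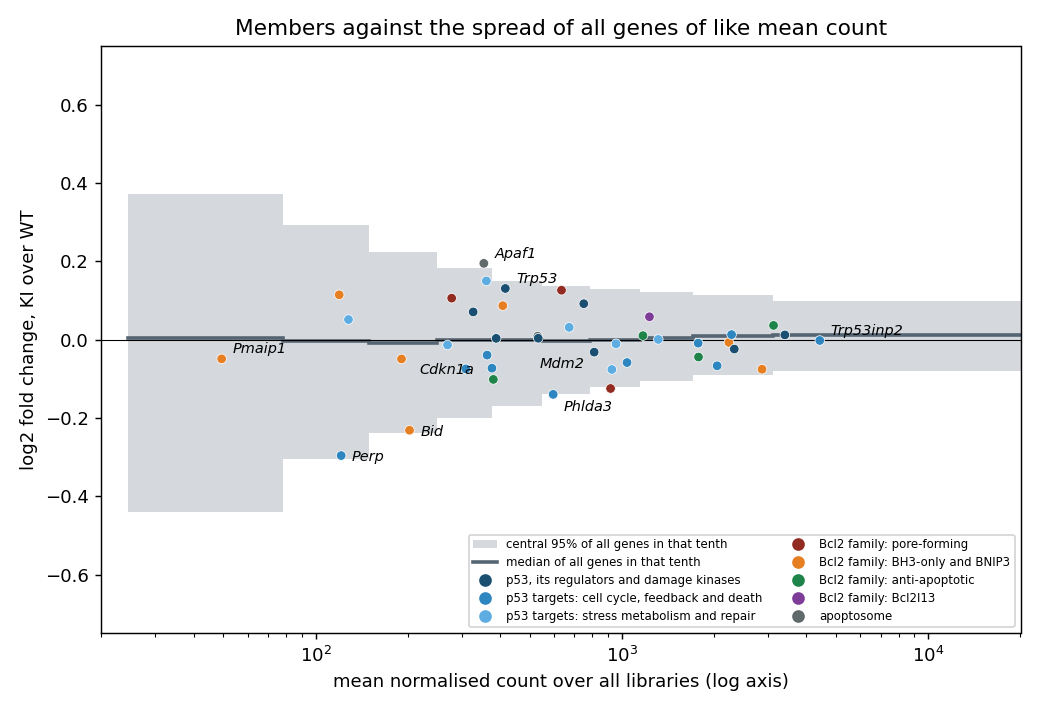
Log2 fold change (vertical axis, KI over WT) against mean normalised count over all libraries (horizontal axis, log scale) for the 42 genes, coloured by role, with the central 95% (grey) and median (line) of all genes in each of 10 classes of mean count. Apaf1 and Bok lie just outside the band and the other 40 inside it.

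Levels over all libraries covered a wide range. Per kilobase of the longest annotated transcript, mean normalised counts ran from 18.1 (Pmaip1) to 1273 (Bnip3), with a median of 179.3. The mitophagy and autophagy genes Bnip3, Trp53inp2 (1112 per kilobase), Ei24 (885.8) and Bnip3l (879.5) led. They were followed by Bcl2l2 (819.6), Usp7 (717.1) and Bcl2l1 (692.5). Of the other anti-apoptotic genes Mcl1 stood at 342.7 and Bcl2 at 52.9, so that Bcl2 was the lowest of the 4 anti-apoptotic genes in adult cortex. Among pore formers Bok (625.4) and Bax (577.3) were well above Bak1 (116.5). Of the BH3-only genes Bad stood at 266.5, with Bbc3 at 105.2, Bid at 83.9 and Bcl2l11 at 23.7, and Apaf1 stood at 53.9. Among targets Ccng1 stood at 505.0, Phlda3 at 415.7 and Cdkn1a at 181.0, and Trp53 itself at 127.1. The order has no error, because the spread over libraries is not in the data, and a longest transcript that is little used lowers the value of its gene.

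**Figure D3:**
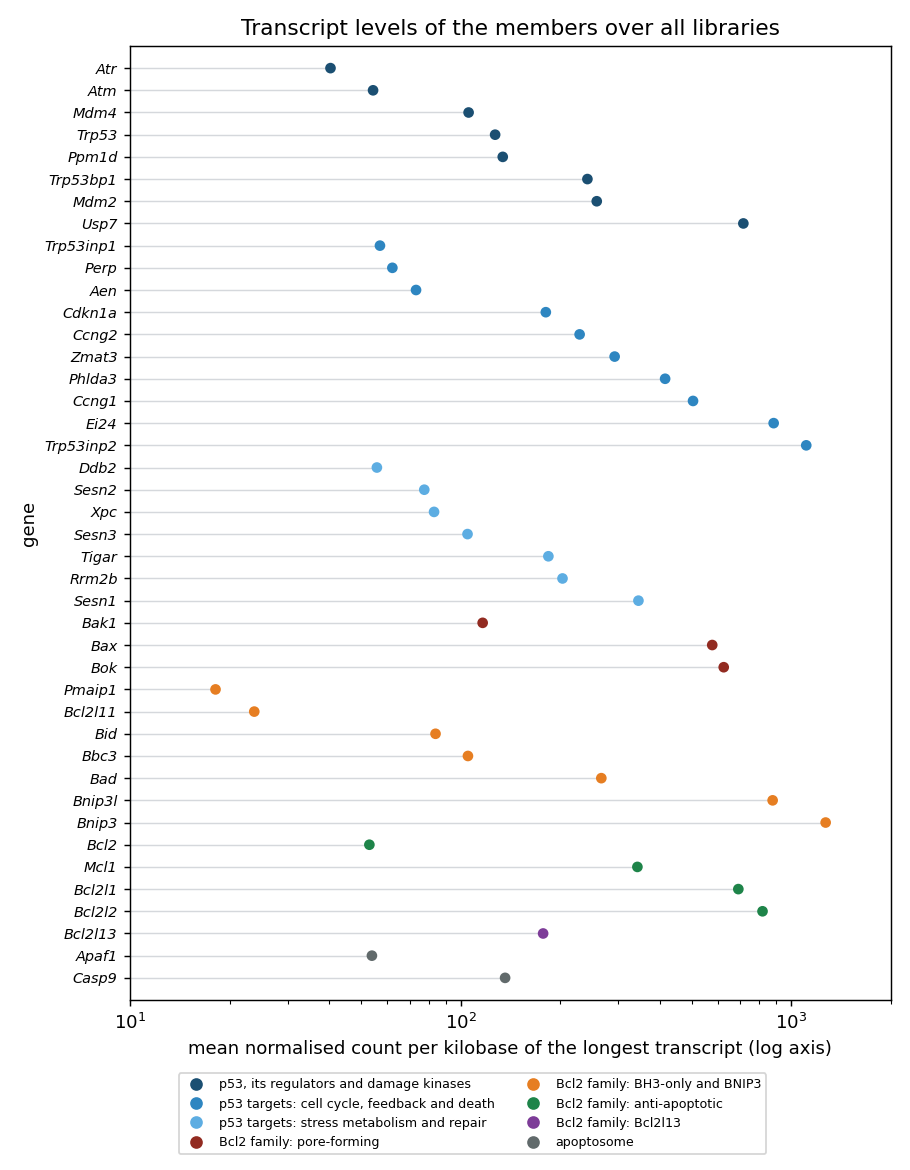
Mean normalised count per kilobase of the longest transcript (horizontal axis, log scale), over all 10 libraries of both genotypes, for the 42 genes grouped by role. Bnip3 and Trp53inp2 exceed 1000 per kilobase, and Pmaip1 and Bcl2l11 are the lowest.

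Reads of overlapping genes are a limit for some of these values, since it is not stated whether counting used strand. In GENCODE M21, exons of 7 of the 42 genes overlap exons of another gene of the table on the opposite strand (Atr, Bad, Bak1, Bcl2l13, Bid, Ddb2 and Trp53bp1), and for 5 of the 7 the RefSeq gene spans overlap too. Bid and Bcl2l13 face each other and share 628 bases of GENCODE exon, 17.7% of those of Bid, but their RefSeq spans do not meet. Trp53bp1 shares 2130 bases with Tubgcp4, which stood at a log2 fold change of 0.23 (SE 0.10, unadjusted p = 0.0278) in the authors' deposited table, against -0.024 for Trp53bp1.

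The wider pathway was read from further lists. Of 141 further symbols, 117 were in the table, none passed the adjusted threshold and 2 (1.71%) had an unadjusted p under 0.05, with a median log2 fold change of 0.017. The 30 other p53 targets tested had a median of 0.0059 and 16 positive members. Their smallest unadjusted p-values belonged to Gadd45a, a growth arrest gene (-0.30, SE 0.17), Slc19a2, a thiamine transporter (0.17, 0.097), and Psrc1 (-0.20, 0.13) in the authors' deposited table. Other p53 regulators were positive in 23 of 28 cases (82.1%, against 51.6% of all genes), with a median of 0.021. Their median mean normalised count was also higher, at 1362 against 548.6, and no test was made on this share. The 1 of them with an unadjusted p under 0.05 was Trim24, a ubiquitin ligase for p53, at -0.14 (SE 0.069, p = 0.0458) in the authors' deposited table. Other DNA damage response genes had 14 of 26 positive and a median of 0.011, with Parp1, the poly(ADP-ribose) polymerase of strand breaks, at 0.12 (SE 0.059, unadjusted p = 0.0444) in the authors' deposited table. Other apoptosis genes had 16 of 30 positive and a median of 0.017. Those with the smallest p were Casp8 (-0.37, SE 0.19), Bmf (0.29, 0.16) and Fadd (-0.38, 0.22) in the authors' deposited table, all with intervals that cross zero. Of the linker histones, through which CHD8 is reported to act on p53, 3 of 11 listed symbols, older names of the same genes included, were tested, and H1f0 stood at 0.00095, H1f10 at 0.0079 and H1f2 at -0.13 (SE 0.11) in the authors' deposited table.

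Tissue markers were read beside these values. The 7 markers of cortical excitatory neurons used here, Slc17a7 and Tbr1 among them, were present, with a median log2 fold change of 0.034 and none past the threshold. Markers of thalamus had a median of -0.40, with 4 of 6 negative, of which Tcf7l2 and Prkcd passed the adjusted threshold. The thalamic markers Lef1 (0.090, interval -0.21 to 0.39) and Rora (0.057, -0.24 to 0.35) were positive. Markers of choroid plexus (median -0.33, 5 of 5 negative) and meninges (-0.26, 6 of 6 negative) were at lower values in KI, but none passed the adjusted threshold. Among these, the intervals of Ttr, Clic6, Dcn, Lum, Col1a1 and Col1a2 crossed zero. The part of these 3 tissues in the low values of Perp, Bid, Phlda3 or Bok was not tested. In bulk tissue, fewer cells of a type, less RNA per cell and a differing share of non-cortical tissue cannot be told apart. Markers of oligodendrocytes were negative in 6 of 6 cases (median -0.074), 2 of them, Cnp and Mog, with an unadjusted p under 0.05, and those of inhibitory neurons in 5 of 6 (median -0.059). Markers of migrating neuroblasts and dividing cells were positive in 3 of 4 (median 0.10), those of endothelial cells in 3 of 4 (0.026), those of astrocytes in 3 of 5 (0.00074) and those of microglia in 1 of 5 (-0.0062). No marker of these 6 lists passed the adjusted threshold.

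**Figure D4:**
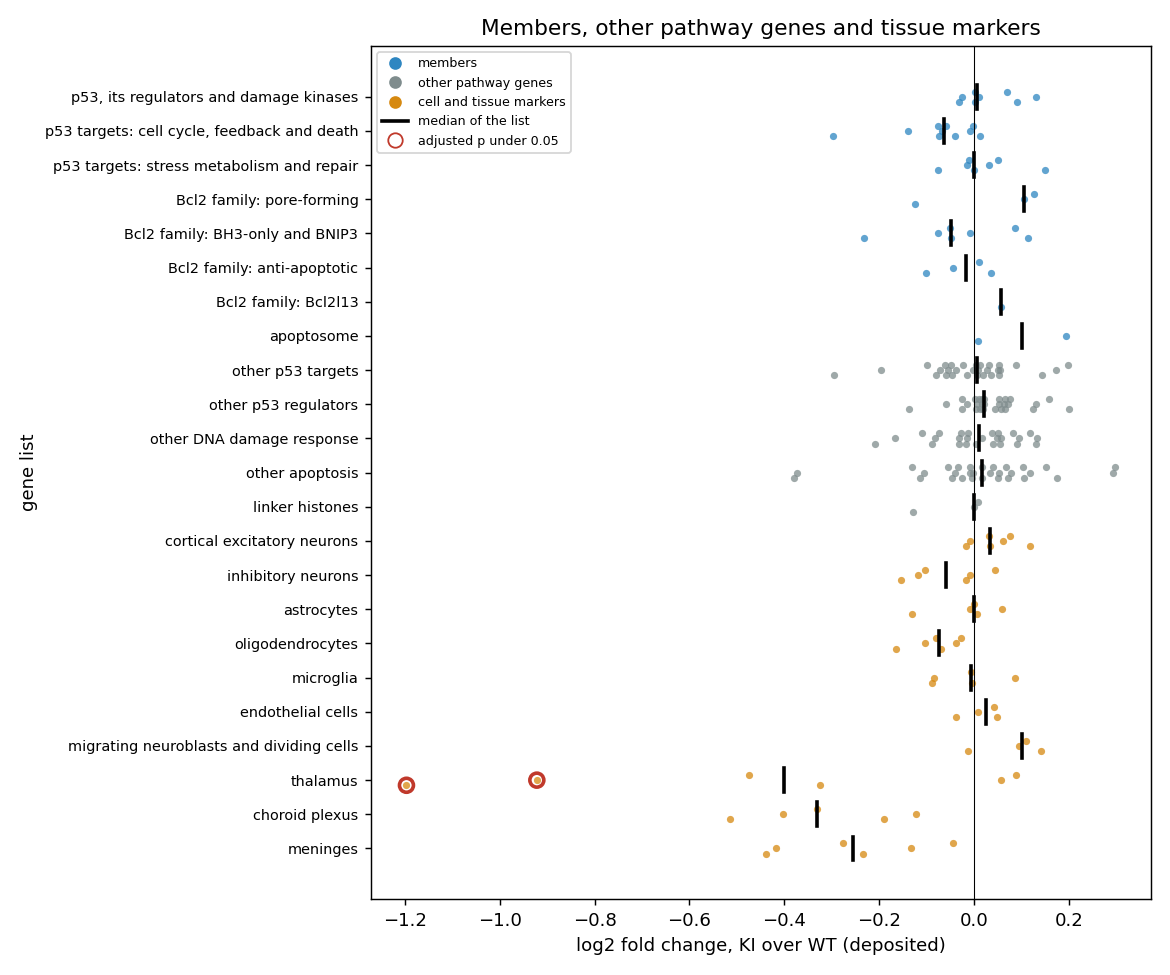
Log2 fold change, KI over WT (horizontal axis), of every tested gene of the p53 and Bcl2 groups (blue), of further pathway lists (grey) and of cell and tissue markers (orange), with the median of each list as a black bar and genes past an adjusted p of 0.05 circled. The only circled genes are the thalamic markers Tcf7l2 and Prkcd, and the blue and grey medians all lie within ±0.11.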

How the data were processed

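The titles gave each sample its group. Trimmomatic 0.39, HISAT2 2.1.0, featureCounts 2.0.0 and DESeq2 1.26.0 were used with build mm10, per the submitters' processing notes. Settings, annotation, strand and filters were not given in the sources used here. Per the file headers, the authors' deposited table gives for each gene the mean normalised count over all libraries (a signal value), the log2 fold change and its standard error, the Wald score, and p-value and adjusted p-value. No counts per library were used, so depth per library is unknown, and no refit, replicate check or paired fit was made. The deposited adjusted p-value was checked to be a Benjamini-Hochberg adjustment over 13660 genes, and the Wald score to be the log2 value over its standard error. The lowest mean normalised count is 24.4.

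The count model planned for counts per library did not apply, and the authors' test was used as deposited, with a threshold of 0.05 over all genes. Intervals are normal 95% intervals from the deposited standard error, computed in Python 3.11.15 with SciPy. Only the Benjamini-Hochberg adjustment and these intervals were tried on simulated data. Those data were drawn from the same standard errors, so the coverage of the intervals was fixed in advance. RefSeq (GRCm38.p6) named 13497 of the gene numbers, and GENCODE M21 gave transcript lengths and exons. The members and lists were chosen with earlier results of these data known. Every member in the table is named, and an interval and unadjusted p are given for Trp53, Mdm2, Cdkn1a, the 6 members with the smallest p and the widest interval of each role. Further pathway genes are named if their unadjusted p was under 0.05, and otherwise up to 3 per list by smallest p. Tubgcp4 was named after its value was seen. A marker of the cortical neuron list is not reported here.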

Additional observations from a re-analysis of the deposited data

How the results depend on the processing

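No member passed under an adjusted threshold of 0.1 or 0.01, or with the adjustment made again over genes with a mean count of at least 50, 200 or 1000, and 3 had an unadjusted p under 0.05. The smallest adjusted p of a member was 0.9999 as deposited, so the thresholds of 0.1 and 0.01 could not have called one. Made again, it was 0.99987, 0.99991 and 0.99996, in the order of those mean counts. The median log2 fold change of the members stayed between -0.012 and -0.0022 under all 8 alternatives. These values are small beside the median deposited SE of the members, 0.080, and no direction is read from their sign. The alternatives included centring by all genes, by transcript length and by mean count. Leaving out members with overlapping exons and centring by median transcript length were chosen after seeing the data. The number of members with an interval inside the bound was 41 at ±0.5, 22 at ±0.25, 42 at ±1, and 38 with 99% intervals at ±0.5. No paired analysis was possible because the table has no values per library, and for the same reason leaving out replicates was not run. Depth per library is unknown, and the deposited standard errors set what could be detected.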
